A study of Mus musculus with 67 samples.

Results

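The livers of the hypertensive inbred strain BPH/2J (BPH) were compared with those of the hypotensive inbred strain BPL/1J (BPL). The comparison took every array titled as liver from either strain, 5 BPH and 5 BPL arrays, which are 10 of the 67 arrays of the series. The other arrays were from heart, kidney and aorta, and from the normotensive strain BPN/3J (BPN), whose 5 liver arrays entered the fit only to share 1 estimate of the spread. All mice were males aged 12 weeks, untreated as far as the labels say, and the series gives systolic pressures of 142 ± 5, 69 ± 1.7 and 94 ± 6 mmHg for BPH, BPL and BPN, without naming the kind of error. Each strain is a single inbred line, so blood pressure and every other inherited difference between the strains cannot be told apart. RNA was measured on custom Affymetrix arrays, and the deposited values are intensities normalized with RMA, a method that corrects background, matches the arrays' distributions and sums the probes of a probe set. All values below are on the log2 scale of these intensities. Because a probe set reads its own scale, levels of different genes are not compared. Nothing in the labels ties an array to an animal or a plate, so p-values measure the spread between arrays.

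The liver is the organ that makes most of the blood's proteins, cholesterol and bile acids, clears drugs and hormones, and disposes of nitrogen as urea. It also secretes angiotensinogen, from which renin and converting enzyme release angiotensin II, a peptide that constricts arteries. The strains were bred from crossed mice by selection on blood pressure, and liver was collected beside the organs that pressure acts on.

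The liver arrays differed by strain but were closely alike. Correlations over all probe sets were 0.992 to 0.996 between arrays of 1 strain and 0.989 to 0.991 between BPH and BPL arrays, and the leading 2 principal components, with 24.1% and 22.5% of the variance, separated the 3 strains. BPL array 3 had the lowest median intensity of the liver arrays (13.6, against a highest of 14.4 in BPN array 5) and the lowest estimated array weight, 0.657. Of 38385 probe sets, 24478 name a single gene, for 19147 genes in all. Albumin, the defining hepatocyte product, was between 14.12 and 14.24 on all BPH and BPL arrays. None of the 11 measured hepatocyte markers was below the lower quartile of the arrays.

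In the moderated test of limma across all probe sets, 2213 of 38385 (5.77%) passed a Benjamini-Hochberg adjusted p under 0.05, called a change below. Of these, 1028 (2.68%) were higher and 1185 (3.09%) lower in BPH. The median difference of all probe sets was -0.00. The changes belonged to 1588 named genes and to 475 probe sets without a single gene name. A change of 2-fold or more was seen for 136 higher and 148 lower probe sets. When each gene was taken by its brightest probe set, 672 genes were higher (3.51%) and 737 lower (3.85%). Each count of list members below is to be read against these shares. The lowest BPH array was above the highest BPL array, or the reverse, for 2655 probe sets (6.92%). Of the 2213 changes, 1536 passed in each of the 15 fits that left out 1 liver array.

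The largest differences ran from near the dimmest signals of the arrays to bright ones. Nat8f2, an N-acetyltransferase family member, read 11.44, 11.29, 11.50, 11.24 and 11.34 on the BPH arrays and 2.38, 2.43, 2.26, 2.23 and 2.33 on the BPL arrays. Its signal was at least 390-fold higher in BPH (adjusted p = 8.26e-24), with BPN at 11.48 ± 0.10 (SD, n = 5), the BPH level. The fold is a lower bound since the BPL mean was under 2.76, the highest lower quartile of any liver array. Such dim signals were raised to that level for each fold written with "at least". The means of Thumpd1 in BPL (2.91) and Dram1 in BPH (2.94) were just above that level, so their folds below are also uncertain.

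Nlrp12, an innate immune sensor protein, ran the other way, at 2.66, 2.97, 2.75, 2.29 and 2.85 in BPH and 8.06, 7.96, 7.85, 8.15 and 8.25 in BPL. Its signal was at least 37.7-fold lower in BPH (adjusted p = 7.23e-15). Gstp3, a pi-class glutathione S-transferase that conjugates reactive compounds, was at 7.52, 7.77, 7.60, 7.67 and 7.72 in BPH and 12.69, 12.65, 12.72, 12.55 and 12.72 in BPL. Its signal was 32.2-fold lower in BPH (log2 difference -5.01 ± 0.09 SE, adjusted p = 3.1e-17). Here BPN, at 7.41, lay with BPH, and BPL stood alone. Nat8f2 and Gstp3 each have near-identical family members, so their signals may include those of relatives.

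Among the other genes with the 12 largest increases were enzymes of lipid and amino acid handling. Gdpd3, a lysophospholipase D, read 8.44, 9.40, 8.49, 9.46 and 8.98 in BPH and 4.12, 4.07, 4.16, 4.23 and 4.09 in BPL, 28.3-fold higher in BPH (adjusted p = 7.13e-14). Mme, or neprilysin, a membrane protease that breaks down natriuretic peptides and bradykinin, was at 7.01, 7.05, 7.08, 7.30 and 6.88 in BPH and at 2.61, 2.94, 1.91, 2.73 and 3.43 in BPL. It was at least 17.6-fold higher (adjusted p = 3.24e-12), and BPN, at 3.45, was near BPL. Prodh2, which breaks down hydroxyproline, rose 7.86-fold (adjusted p = 3.49e-15). Cyp2c55, a cytochrome P450 that oxidizes arachidonic acid, rose 7.12-fold (adjusted p = 1.97e-08), and Acnat2, which joins fatty acids to amino acids, 5.17-fold (adjusted p = 4.09e-08). Thumpd1, a partner in tRNA acetylation, rose 11.5-fold, AA465934 9.24-fold, and Fam25c 6.99-fold. Ifi202b, an interferon-induced gene, was at least 5.19-fold higher and Atp4a, the catalytic subunit of the gastric proton pump, at least 4.70-fold higher. Fmn2, an actin nucleator, was 11.9-fold higher on 1 of its 3 probe sets. The other Fmn2 probe sets differed by 0.02 and 0.02, at mean levels of at most 2.66.

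The genes with the 12 largest decreases in BPH were of more mixed kinds. Itih5, which binds hyaluronan to proteins of the matrix, fell by 3.82 on one probe set and 2.62 on the other (adjusted p = 6.4e-11 and 2.02e-09). Myom2, a sarcomere protein, was 12.4-fold lower (adjusted p = 5.75e-14), and Atg4a and Dram1, both with roles in autophagy, 11.5-fold and 6.66-fold lower. Asic5, a channel of the acid-sensing family that bile acids open, was at 5.05 ± 0.23 in BPH and 8.22 ± 0.23 in BPL (SD, n = 5 each), 8.99-fold lower (adjusted p = 3.82e-12). Ugt3a1, a UDP-glycosyltransferase, was 6.64-fold lower, Obp2a, a lipocalin, 6.12-fold, and Crym, which binds thyroid hormone in the cell, 6.00-fold. Obp2a had the widest spread of these genes, from 6.22 to 8.81 among the BPL arrays. Probe sets of 2 genes in this group disagreed with each other. Smim14, a small membrane protein, fell by 3.10 on one probe set, while the others differed by -0.07 and -0.02. Arsk, a sulfatase, fell by 2.57 on one, while the others differed by 0.08 and -0.35 (adjusted p = 0.728 and 0.0599). What these probe sets read differently was not tested. Probe sequences and strain variants under the probes were not checked, for these genes or for any other gene in the text.

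**Figure D1:**
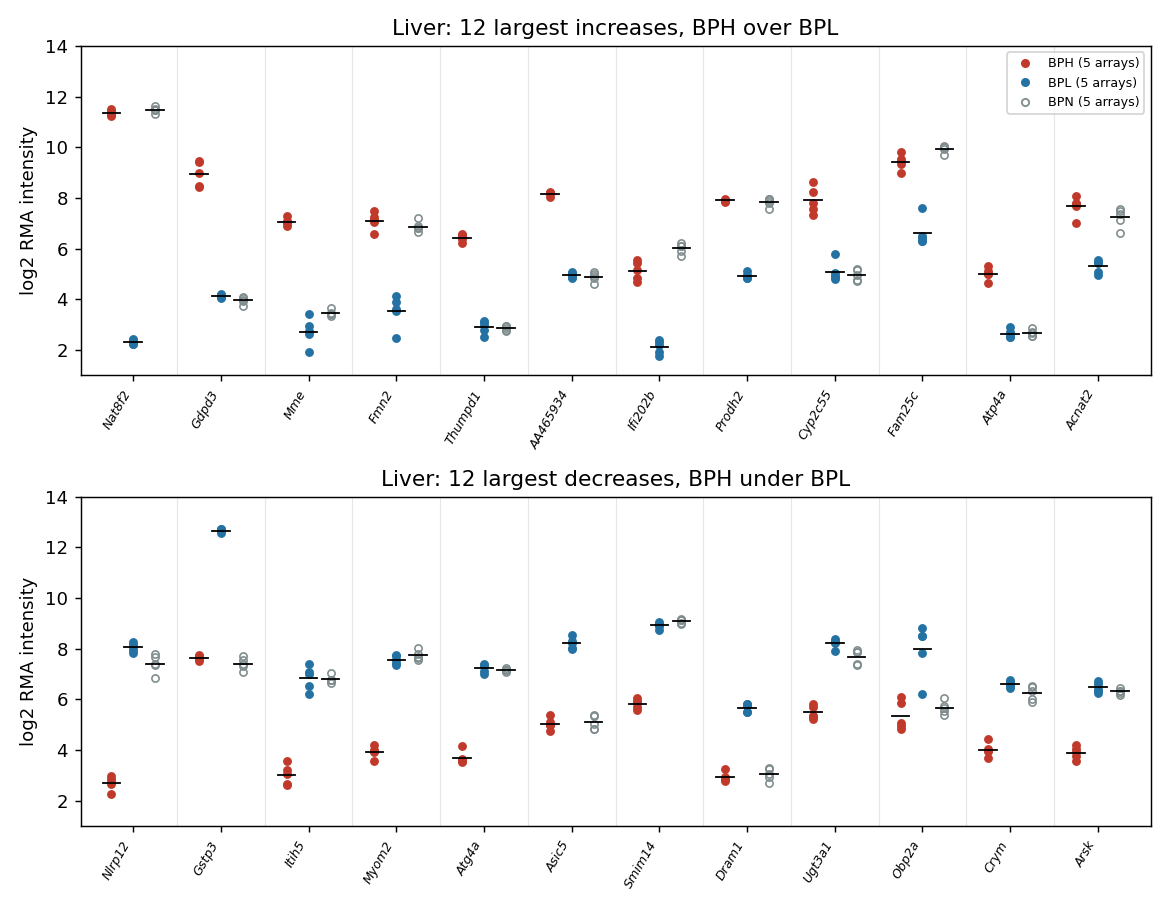
Log2 RMA intensity on each liver array for the genes with the 12 largest increases (top) and 12 largest decreases (bottom) in BPH against BPL. Points are arrays (5 a strain) and lines are strain means. The genes were picked for arrays that do not overlap, so their separation is a description. BPN lies nearer to BPH for 10 of the 24 genes and nearer to BPL for 14.

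BPN lay nearer to BPH for 10 of these 24 genes and nearer to BPL for 14. Over the 2213 changed probe sets the split was 1150 and 1063. For Gdpd3, Mme, Thumpd1, AA465934, Cyp2c55 and Atp4a the high signal was in BPH while BPL and BPN were both low. For Gstp3, Asic5, Dram1 and Obp2a it was BPL that was high while BPH and BPN were low.

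Corin, the protease that activates atrial natriuretic peptide in the heart, was below the array lower quartile in BPH liver and above it in BPL. It read 2.16, 2.23, 2.21, 2.08 and 2.33 in BPH and 4.51, 4.12, 4.43, 4.55 and 4.62 in BPL, at least 3.23-fold lower in BPH (adjusted p = 1.24e-12). BPN was at 2.34, as low as BPH. In heart the Corin difference was 0.04, in kidney -0.43 and in aorta 0.004 (limma adjusted p = 0.763, 0.0373 and 0.994). This gene was singled out after its values were seen.

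Cholesterol synthesis was the list with the most changes in 1 direction. Liver cells build cholesterol from acetyl-CoA through mevalonate, isoprenoids and lanosterol, and the transcription factor SREBP2, made from Srebf2, switches these genes on when sterols in the cell are low. Of 17 measured genes of synthesis and uptake, 12 were lower in BPH than in BPL, 0 were higher and 5 did not pass. The median difference of the list was -0.37, against -0.00 over all named genes, and 15 of the 17 differences were negative. In each of the 15 fits without 1 array, 12 of these genes were called lower.

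Called decreases were found at early, middle and late steps of the pathway. Hmgcs1, which makes the precursor of mevalonate, read 11.38, 11.03, 11.03, 11.08 and 11.07 in BPH and 12.06, 12.04, 11.76, 11.66 and 11.93 in BPL. The groups did not overlap, and BPH was 1.71-fold lower (log2 -0.77 ± 0.09 SE, adjusted p = 8.37e-06). Next in the pathway, the mevalonate kinase Mvk fell 1.41-fold (adjusted p = 0.000466), and Pmvk, Mvd and Idi1, which carry mevalonate to the isoprenoid units, fell 1.28-fold, 1.36-fold and 1.37-fold. Lss, which closes the sterol ring, was at 9.43, 9.31, 9.08, 9.08 and 9.30 in BPH and 9.96, 9.77, 9.55, 9.50 and 9.92 in BPL, 1.41-fold lower (adjusted p = 0.00571). Its other probe set differed by -0.22 (adjusted p = 0.37).

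Of the enzymes that turn lanosterol into cholesterol, 5 fell. Cyp51, the lanosterol demethylase, read 9.85, 9.59, 9.60, 9.61 and 9.60 in BPH and 10.34, 10.29, 10.17, 10.23 and 10.37 in BPL (1.55-fold lower, adjusted p = 3.63e-05, both probe sets called). Nsdhl, a sterol dehydrogenase, read 6.02, 5.84, 5.84, 5.84 and 5.74 in BPH and 6.59, 6.45, 6.40, 6.45 and 6.45 in BPL (1.53-fold lower, adjusted p = 0.000973). Msmo1, Dhcr7 and Sc5d fell 1.29-fold, 1.24-fold and 1.24-fold. The regulator Srebf2 itself fell 1.31-fold on its brightest probe set, and all 3 of its probe sets were called lower (adjusted p = 0.00531 for the brightest). Its highest BPH array, 6.38, was just above its lowest BPL array, 6.35, and 11 of the 12 called genes had no such overlap. Over all probe sets, 1830 of the 2213 called also had no overlap, so this count does not set the list apart. On the brightest probe set the remaining genes were Sqle at -0.26 (adjusted p = 0.105), Hsd17b7 at -0.25 (0.104), Fdps at -0.18 (0.249), Stard4 at 0.15 (0.224) and Insig1 at 0.19 (0.299). Other probe sets gave different calls for a pair of these: one of Hsd17b7 was lower at -0.42 (adjusted p = 0.00647), and one of Stard4 was higher at 0.29 (adjusted p = 0.0237), against the direction of the list. The signal summed over the list was 19993 to 22028 in BPH, 24032 to 29285 in BPL and 21917 to 25503 in BPN, so BPH and BPL did not overlap and the BPN range overlapped both. By gene, mean BPN was below BPH for Idi1 (9.57 against 9.75) and Msmo1 (12.05 against 12.20). For Mvk, Nsdhl, Dhcr7 and Srebf2 it was nearer to BPH than to BPL (8.20, 5.90, 9.32 and 6.28). It was above BPL for Pmvk (9.17 against 9.01), Mvd (8.35 against 7.89) and Sc5d (11.43 against 11.34), and between the strains for Lss (9.49).

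The letters before the starts of the leading genes are shown because SREBP2 is known to act on such promoters beside the factor NF-Y, which binds CCAAT. Windows of 250 bases before a gene's start (RefSeq, GRCm38.p6) were found for 14 of the 17 genes. CCAAT, on either strand, was in a window of 14 of these 14, among them 12 of the 12 called genes, and in 37.5% of the 27025 genes with a window. The sterol element letters TCACNCCAC were in 1 of the 14, Hmgcs1, against 1.22% of all genes, and that match began at position -137 from its start. Only these exact letters were searched, so sterol elements with other letters were not counted and may stand in lower case below. The letters that overlap neither searched motif are in lower case. Capitals mark the CCAAT letters, or their complement where they lie on the opposite strand. In Hmgcs1 capitals also mark the TCACNCCAC match. The sequences are those of the reference mouse genome, not of these strains, and run 5′ to 3′ on the gene's strand. They are the windows of the 4 genes with the largest decreases: Hmgcs1 at chr13:119690101-119690350 (plus strand), Cyp51 at chr5:4104698-4104947 (minus strand), Nsdhl at chrX:72918271-72918520 (plus strand) and Lss at chr10:76531355-76531604 (plus strand).
Hmgcs1: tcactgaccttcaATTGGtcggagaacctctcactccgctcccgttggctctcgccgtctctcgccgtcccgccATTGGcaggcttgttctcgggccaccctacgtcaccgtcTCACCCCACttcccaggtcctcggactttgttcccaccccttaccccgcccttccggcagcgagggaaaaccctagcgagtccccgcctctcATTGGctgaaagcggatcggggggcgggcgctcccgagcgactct
Cyp51: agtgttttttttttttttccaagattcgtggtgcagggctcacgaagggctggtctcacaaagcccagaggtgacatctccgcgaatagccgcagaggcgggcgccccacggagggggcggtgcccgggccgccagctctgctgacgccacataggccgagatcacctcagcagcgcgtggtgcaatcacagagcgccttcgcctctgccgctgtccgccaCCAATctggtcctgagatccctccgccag
Nsdhl: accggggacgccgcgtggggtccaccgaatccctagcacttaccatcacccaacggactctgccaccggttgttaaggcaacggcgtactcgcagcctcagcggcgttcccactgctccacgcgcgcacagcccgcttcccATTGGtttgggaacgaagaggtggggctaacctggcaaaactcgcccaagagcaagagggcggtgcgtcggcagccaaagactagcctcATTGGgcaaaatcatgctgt
Lss: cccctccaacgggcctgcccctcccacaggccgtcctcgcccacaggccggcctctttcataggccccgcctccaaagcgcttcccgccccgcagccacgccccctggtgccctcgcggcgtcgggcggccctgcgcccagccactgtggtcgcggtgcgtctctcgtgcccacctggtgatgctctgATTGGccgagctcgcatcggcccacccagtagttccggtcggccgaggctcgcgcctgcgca
CCAAT occurred 3 times in the Hmgcs1 window, 2 times in that of Nsdhl and once in each of the others. A match describes these letters and is not evidence of binding.

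**Figure D2:**
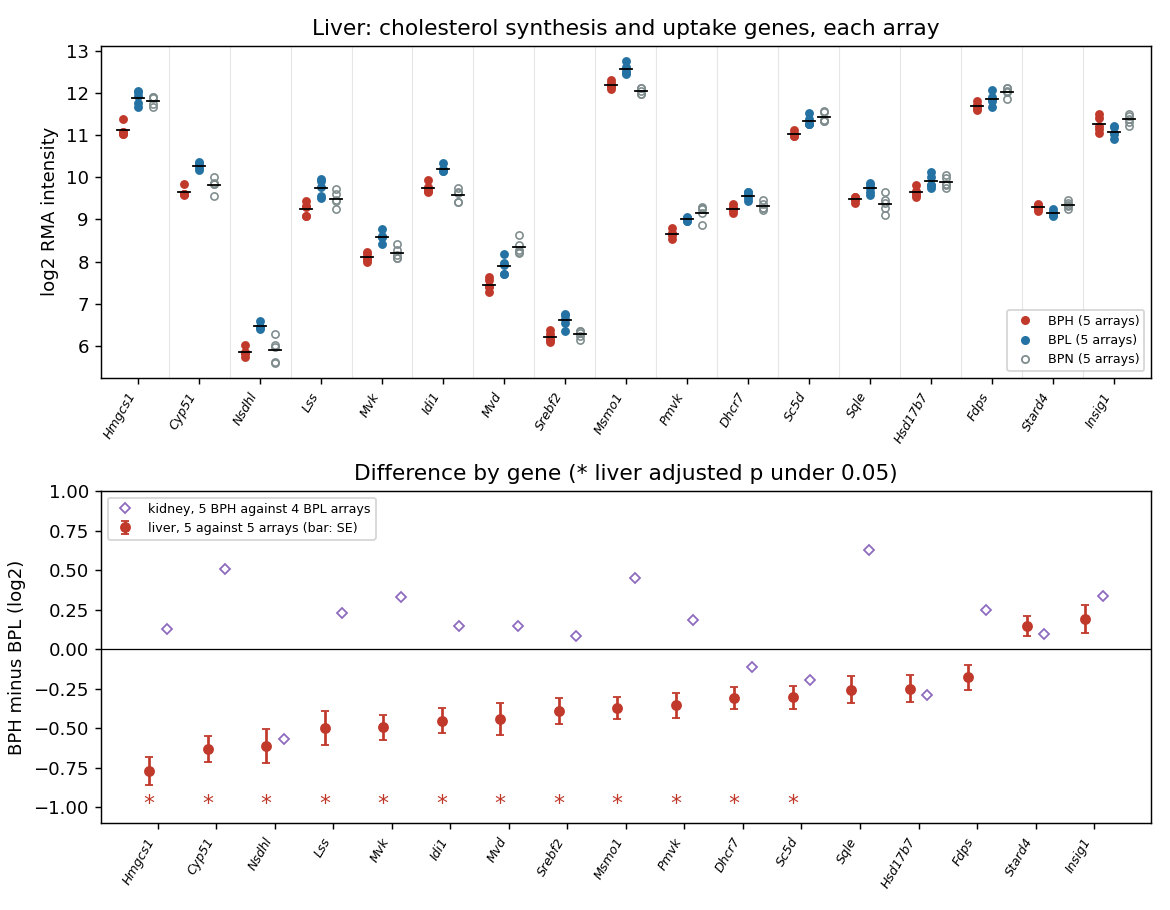
Top, log2 RMA intensity of the 17 cholesterol genes on each liver array, with strain means as lines. Bottom, the BPH minus BPL difference in liver (filled circles, bars are SE, 5 against 5 arrays) and in kidney (open diamonds, 5 against 4 arrays); asterisks mark the 12 genes called in liver, all below 0.

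In kidney the same 17 genes gave 2 higher and 2 lower calls and a median difference of 0.15. The liver and kidney differences themselves differed for 10 of the 17 genes in a fit over the 44 heart, kidney and liver arrays, where 4.63% of probe sets passed that test. Hmgcs1 differed by 0.13 in kidney (liver minus kidney -0.90 ± 0.12 SE, adjusted p = 3.76e-07). Cyp51 was higher in BPH kidney by 0.50 (adjusted p = 0.000574), opposite to liver. Nsdhl was lower in both organs, by -0.57 in kidney.

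Bile acids are made from cholesterol, and 5 of 18 genes of their synthesis and transport fell while 2 rose. Cyp8b1, which makes the precursor of cholic acid, read 11.76, 11.47, 11.78, 11.39 and 11.33 in BPH and 12.50, 12.39, 12.30, 12.32 and 12.49 in BPL. It was 1.80-fold lower in BPH (adjusted p = 2.03e-06), with BPN, at 11.60, near BPH. Cyp7a1, the rate-limiting enzyme, read 7.26, 5.75, 7.37, 6.13 and 5.84 in BPH and 7.55, 8.39, 7.61, 7.59 and 7.32 in BPL. BPH array 3 lay just above BPL array 5, and the difference of -1.22 ± 0.30 (SE, adjusted p = 0.0168) was lost without BPH array 2, BPH array 5 or BPL array 2, where adjusted p reached 0.0563. It was also lost with a variance trend and robust fit (adjusted p = 0.0717).

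Transporters moved both ways. Abcb11, the pump that exports bile salts into the canaliculus, fell by 0.27 (adjusted p = 0.00793), while Abcc3, which exports them to the blood, rose by 0.47 (adjusted p = 0.000973) and Slco1b2, an uptake carrier, by 0.33 (adjusted p = 0.00743). Abcb11 and Slco1b2 did not pass in the fit over the 44 arrays of 3 organs (adjusted p = 0.525 and 0.298). Here and below, that fit takes a gene's spread from heart and kidney arrays as well as liver. The liver difference itself is the same in that fit, and only its spread and the adjustment change. Which of these lost a call was not tested. Baat, which conjugates bile acids, and Abcb4, the phospholipid exporter, were at -0.21 and -0.30 (adjusted p = 0.0317 and 0.0243), calls lost without any of 8 and 6 of the liver arrays respectively. The number of lower genes was 2 or 3 without BPH array 2, 4 or 5 or BPL array 2, 3 or 4.

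A few genes of fatty acid use changed. In fatty acid and triglyceride synthesis 1 of 21 genes rose and 2 fell, with a median of -0.03. Acss2, which activates acetate, was at 9.31, 9.69, 9.45, 9.31 and 9.41 in BPH and 10.52, 10.38, 10.07, 9.94 and 10.12 in BPL (1.71-fold lower, adjusted p = 0.000165), and Me1, malic enzyme, was 1.42-fold lower (adjusted p = 0.00819). Thrsp, a lipogenic protein, was 1.91-fold higher (adjusted p = 0.00665, but 0.397 in the fit over 3 organs). Fasn and Scd1, the central synthesis enzymes, differed by 0.23 and -0.08 and did not pass (adjusted p = 0.558 and 0.893).

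In fatty acid oxidation and ketogenesis 1 of 21 genes rose and 3 fell. Cd36, the fatty acid uptake receptor, read 6.19, 7.10, 6.83, 7.35 and 7.35 in BPH and 5.53, 5.36, 5.27, 6.37 and 6.08 in BPL, 2.36-fold higher (adjusted p = 0.000947). Pdk4, which holds back glucose oxidation, the hormone Fgf21 and the pantetheinase Vnn1 were 1.71-fold, 1.63-fold and 2.24-fold lower (adjusted p = 0.00347, 0.0129 and 0.0157). The Vnn1 call was lost with a variance trend and robust fit (adjusted p = 0.0658). Ppara, the receptor that drives these genes in fasting, differed by -0.01 (adjusted p = 0.973) and Cpt1a by -0.24 (adjusted p = 0.116).

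Among lipoproteins and lipases 1 of 16 genes fell. Angptl4, a secreted inhibitor of lipoprotein lipase, read 6.49, 6.52, 6.56, 7.50 and 6.56 in BPH and 7.53, 7.86, 7.66, 8.82 and 8.49 in BPL. BPH array 4 was apart from the other BPH arrays yet below all BPL arrays, and BPH was 2.54-fold lower (adjusted p = 0.000552). In glucose and glycogen metabolism limma called 0 of 16 genes. Pck1, the gluconeogenic enzyme, was at 0.61 ± 0.23 (SE, adjusted p = 0.168) with BPH array 4 the highest.

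Amino acid metabolism had more increases than decreases. Of 24 genes of the urea cycle and amino acid metabolism, 7 rose and 2 fell, with a median of 0.06, and these 9 calls held in every fit without 1 array. Asns, asparagine synthetase, read 5.31, 4.64, 4.86, 4.27 and 5.07 in BPH and 3.45, 3.41, 3.53, 3.50 and 3.78 in BPL, 2.46-fold higher (adjusted p = 4.23e-05), with BPN higher still at 6.19. Got1, the cytosolic aspartate aminotransferase, rose 1.48-fold, and Oat, ornithine aminotransferase, 1.45-fold (adjusted p = 0.00131 and 0.000949). Mat1a, which makes the methyl donor S-adenosylmethionine, Glul, glutamine synthetase, Arg1, the arginase of the urea cycle, and Cbs, which directs homocysteine to cysteine, rose by 1.25-fold to 1.35-fold. Csad, the taurine synthesis enzyme, was at 9.97, 9.83, 9.64, 10.11 and 9.62 in BPH and 10.89, 10.96, 10.95, 11.05 and 10.44 in BPL, 2.03-fold lower (adjusted p = 6.3e-05), and Hal, histidine ammonia-lyase, 1.26-fold lower (adjusted p = 0.00651). Arg1, Mat1a, Cbs and Hal did not pass in the fit over 3 organs (adjusted p = 0.662, 0.33, 0.0683 and 0.0794).

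Of 21 cytochrome P450 genes of drug metabolism, 4 rose and 1 fell. Cyp2c50 read 8.63, 8.35, 8.57, 8.64 and 8.47 in BPH and 7.75, 7.47, 7.88, 7.84 and 7.62 in BPL (1.76-fold higher, adjusted p = 0.000567), and Cyp2c29 and Cyp1a2 were 1.37-fold and 1.29-fold higher (adjusted p = 0.000721 and 0.00138). Cyp2c70, which hydroxylates bile acids in mice, was 1.17-fold higher (adjusted p = 0.0428), which no longer passed when any 1 of 10 liver arrays was left out. Cyp2f2, a P450 of the periportal hepatocytes, was at 12.79, 12.89, 12.83, 12.70 and 12.44 in BPH and 13.51, 13.46, 13.46, 13.42 and 13.51 in BPL (1.67-fold lower, adjusted p = 1.28e-06). Without BPH array 5, 2 P450 genes were called lower. The ethanol-oxidizing Cyp2e1 differed by 0.02 (adjusted p = 0.905). In the fit over 3 organs Cyp2c29, Cyp1a2 and Cyp2f2 did not pass (adjusted p = 0.264, 0.42 and 0.563). Mouse Cyp2c genes are close copies of each other, and their probe sets may read more than 1.

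Of 22 genes of conjugation and export, 4 rose and 2 fell. The sulfotransferases Sult1a1 and Sult1d1 were 1.67-fold and 1.55-fold higher (adjusted p = 0.000596 and 0.000729) and the exporter Abcc4 1.60-fold higher (adjusted p = 0.000238). Sult1d1 had an adjusted p of 0.0522 in the fit over 3 organs. Abcg2, at 0.30, Gstm6, at -0.44, and Ugt2b38, at -0.79, lost their calls without any of 11, 5 and 5 liver arrays. The count of lower genes was 0 without BPH array 4 or 5 or BPL array 1 or 3, 1 without BPL array 2 or 5, and 4 without BPN array 2. Of 16 genes of arachidonate and epoxide metabolism 1 rose. It was Hpgd, which inactivates prostaglandins, at 10.31, 10.36, 10.20, 10.44 and 10.49 in BPH and 9.65, 9.49, 9.75, 9.81 and 9.96 in BPL (1.54-fold higher, adjusted p = 0.000215).

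**Figure D3:**
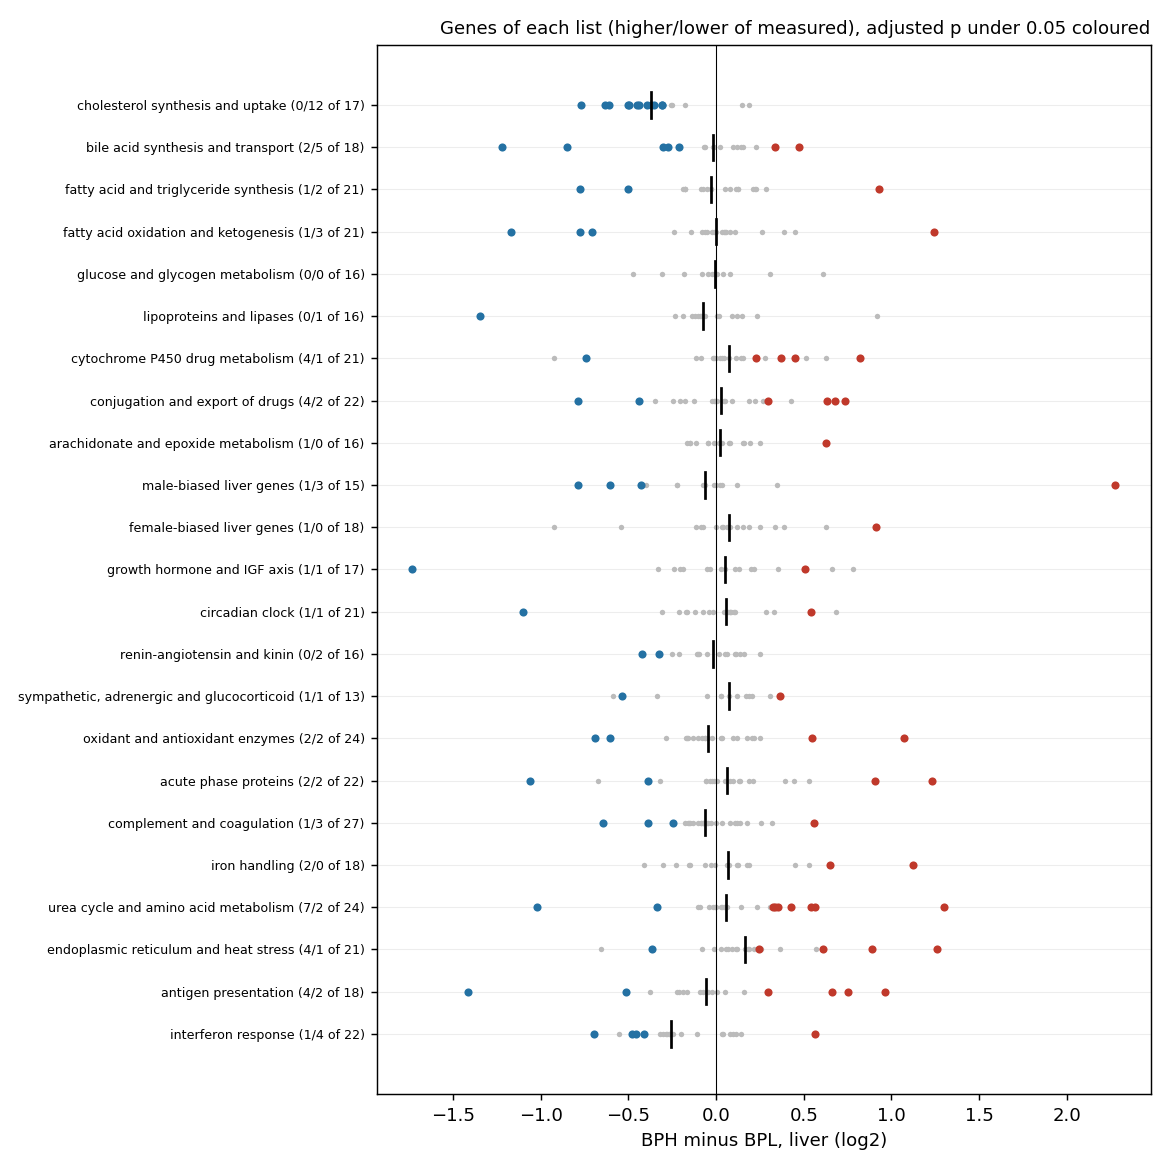
BPH minus BPL difference in liver (log2) for each measured gene of each pathway list, 1 row a list. Red and blue points passed the test as higher and lower, grey points did not, and black bars are list medians. The cholesterol row has 12 blue points and 0 red points, and a median of -0.37.

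Genes of the renin-angiotensin and kinin systems changed little in liver. Agt, angiotensinogen, read 11.46, 11.47, 11.40, 11.56 and 11.46 in BPH and 11.08, 11.12, 11.23, 11.33 and 11.34 in BPL. The arrays did not overlap, but the difference of 0.25 ± 0.08 (SE) did not pass (adjusted p = 0.0821). In kidney the same probe set was 3.44 higher in BPH (adjusted p = 6.69e-09), and the liver and kidney differences differed by -3.19 ± 0.22 (SE, adjusted p = 1.1e-14). Agtr1a, the main angiotensin II receptor, read 9.21, 9.15, 8.81, 9.36 and 9.15 in BPH and 9.58, 9.53, 9.49, 9.60 and 9.59 in BPL, 1.34-fold lower (adjusted p = 0.0177). Klkb1, plasma prekallikrein, was 1.25-fold lower (adjusted p = 0.0162). These were the 2 calls among 16 genes, and both were lost without BPH array 3, where adjusted p was 0.0517 and 0.0521. Klkb1 also did not pass in the fit over 3 organs (adjusted p = 0.162). Ace, converting enzyme, differed by 0.16 (adjusted p = 0.463) and Kng1, kininogen, by 0.02 (adjusted p = 0.932).

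Of 13 sympathetic, adrenergic and glucocorticoid genes, 1 rose and 1 fell. Fkbp5, a target of the glucocorticoid receptor, was 1.29-fold higher (adjusted p = 0.00943), and Ddc, which makes dopamine, 1.45-fold lower (adjusted p = 0.00159). The list of enzymes that make or remove oxidants held 24 measured genes, with 2 calls each way, but 5 lower calls with a pseudocount of 16 or with a variance trend and robust fit. Prdx1, a peroxiredoxin that removes hydrogen peroxide, read 9.54, 9.44, 9.66, 9.63 and 9.66 in BPH and 8.59, 8.53, 8.55, 8.48 and 8.43 in BPL, 2.10-fold higher (adjusted p = 1.33e-08). BPN, at 8.54, was at the BPL level, and the kidney difference was 0.89 (adjusted p = 4.79e-06). Sod3, the extracellular superoxide dismutase, was 1.46-fold higher (adjusted p = 0.000791). Xdh, which yields uric acid and oxidants, was at 8.47, 8.33, 8.60, 8.43 and 8.48 in BPH and 9.20, 9.14, 9.14, 9.07 and 9.19 in BPL (1.61-fold lower, adjusted p = 7.18e-07), and Nox4, an NADPH oxidase, 1.52-fold lower (adjusted p = 0.000632). The mitochondrial Sod2 differed by -0.10 (adjusted p = 0.549).

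Secreted blood proteins changed individually. Of 22 acute phase genes, 2 rose and 2 fell. Apcs, serum amyloid P, read 11.55, 11.40, 11.18, 11.55 and 11.52 in BPH and 10.24, 10.14, 10.08, 10.30 and 10.25 in BPL (2.35-fold higher, adjusted p = 4.76e-08), and Saa4 was 1.87-fold higher (adjusted p = 8.92e-05). Serpina3n, a protease inhibitor, was 2.09-fold lower at 10.63, 10.36, 10.35, 10.30 and 10.37 against 11.50, 11.44, 11.46, 11.36 and 11.55 (adjusted p = 2.15e-09). Crp, C-reactive protein, was 1.31-fold lower (adjusted p = 0.000169, but 0.353 in the fit over 3 organs). Saa1 is not analysed here. These genes, all acute phase by list, thus moved in opposite directions.

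Of 27 complement and coagulation genes, 1 rose and 3 fell. The lower count was 1 in the fit over 3 organs and 5 with a pseudocount of 16, with dim probe sets removed or with a variance trend and robust fit. F12, coagulation factor XII, was 1.56-fold lower (adjusted p = 4.97e-06) and Masp2, a protease of the lectin pathway, 1.31-fold lower (adjusted p = 0.00107, but 0.0585 in the fit over 3 organs). F7, at -0.24, lost its call without BPH array 3 (adjusted p = 0.0518) and in the fit over 3 organs (0.284). Pros1, the anticoagulant protein S, was 1.47-fold higher (adjusted p = 3.13e-05).

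Both hepcidin genes rose in the iron list, in which limma called 2 of 18 genes, 2 of them higher. The hepcidin made from Hamp is the liver hormone that blocks the release of iron into the blood. Hamp2 was at 8.92, 9.14, 8.97, 9.58 and 9.52 in BPH and 8.14, 8.05, 8.57, 8.22 and 7.54 in BPL (2.18-fold higher, adjusted p = 0.000261). Hamp was at 12.92, 12.73, 12.93, 12.95 and 13.09 in BPH and 12.51, 12.21, 12.80, 12.15 and 11.68 in BPL (1.57-fold higher, adjusted p = 0.00823). The Hamp arrays overlapped at BPL array 3, and its call was lost in the fit over 3 organs (adjusted p = 0.201). The 2 genes are close copies, so their probe sets may share signal.

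Of 18 genes of antigen presentation, 4 rose and 2 fell, but 4 fell in 5 of the alternatives. H2-K1, a class I molecule found on most cells, read 10.27, 10.23, 10.21, 10.23 and 10.56 in BPH and 11.66, 11.70, 11.66, 11.73 and 11.82 in BPL, 2.67-fold lower (adjusted p = 6.58e-10), and its other probe set fell by 1.35. Tap1, of the peptide transporter that serves class I, was 1.43-fold lower (adjusted p = 0.00146), while its partner Tap2 was at 0.30 (adjusted p = 0.0495), lost without any of 12 liver arrays.

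Of the class II genes on the list, which present peptides from outside the cell, 2 rose together with their invariant chain. H2-Ea, a class II gene outside the list that was picked with its values in view, was 5.05-fold higher (adjusted p = 3.87e-11). H2-Eb1 read 7.66, 7.11, 7.11, 7.24 and 7.05 in BPH and 6.40, 6.23, 6.34, 6.12 and 6.27 in BPL (1.95-fold higher, adjusted p = 5.12e-06). Cd74, the class II invariant chain, was 1.69-fold higher (adjusted p = 0.00206) and H2-Ab1 1.58-fold (adjusted p = 0.0131). H2-Aa, the partner chain of H2-Ab1, was at 0.01 (adjusted p = 0.989), and H2-DMa, which loads peptide, at -0.19 (adjusted p = 0.346). BPN was above BPH for each of the 3 called list genes, at 8.11, 10.41 and 8.11. In kidney H2-Eb1 differed the other way, by -0.61 (adjusted p = 0.0358), and the organs differed (adjusted p = 3.11e-06). H2 genes are close copies of each other within a class, so a probe set may read more than 1.

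Of 22 interferon-response genes 1 rose and 4 fell, with a median of -0.26. The lower count was 7 with the median of a gene's probe sets, with dim probe sets removed and with array weights. Gbp6, Irf9 and Igtp were 1.62-fold, 1.39-fold and 1.33-fold lower (adjusted p = 0.00155, 0.00254 and 0.00204) and Gbp2 1.48-fold higher (adjusted p = 0.00474). Irf7, at -0.46 (adjusted p = 0.0259), lost its call without any of 7 liver arrays, and Igtp in the fit over 3 organs (adjusted p = 0.329).

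Of 15 genes that are higher in male than in female mouse liver, 1 rose and 3 fell. Serpina1e, an alpha-1-antitrypsin gene, was at 14.25, 14.32, 14.42, 14.47 and 14.13 in BPH and 12.06, 12.08, 11.89, 12.10 and 12.08 in BPL, 4.85-fold higher (adjusted p = 5.83e-14). BPN, at 12.04, was at the BPL level, and copies of the gene family may share this signal. The 3 lower genes were Nox4, Ugt2b38 and Hsd3b5, a steroid dehydrogenase at -0.43 (adjusted p = 0.0391). Hsd3b5 was lost without any of 6 liver arrays, and the count of lower genes was 1 without BPH array 4 or 5 or BPL array 1, 2 or 3, and in the fit of 10 arrays, with a pseudocount of 16 and with a variance trend and robust fit. Of 18 female-biased genes 1 rose, Sult1e1, which sulfates estrogen, at least 1.62-fold higher (adjusted p = 0.0479), lost without any of 13 liver arrays. In the growth hormone and IGF axis 1 of 17 genes rose, Esr1, the estrogen receptor, by 0.51 (adjusted p = 0.00847), and 1 fell. That was Bcl6, a repressor that growth hormone holds down, at 8.64, 6.72, 8.79, 7.49 and 7.15 in BPH and 9.68, 9.99, 9.43, 9.58 and 8.76 in BPL (3.32-fold lower, adjusted p = 0.00677). Bcl6 spread widely within BPH, and its highest BPH array exceeded the lowest BPL array. Igf1 differed by 0.20 (adjusted p = 0.346).

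Of 21 clock genes 1 rose and 1 fell. Nr1d1, the repressor REV-ERB alpha, was at 5.62, 5.82, 5.21, 5.00 and 5.61 in BPH and 6.76, 6.27, 6.58, 6.72 and 6.43 in BPL, 2.14-fold lower (adjusted p = 0.0016). Cry1, at 0.54 (adjusted p = 0.0408), was lost without any of 8 liver arrays, and Dbp, another output of the clock, differed by 0.05 (adjusted p = 0.916). The hour of collection is not given in the labels.

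Of 21 genes of endoplasmic reticulum and heat stress, 4 rose and 1 fell. Hsph1, a large heat shock protein, was at 8.19, 7.83, 8.52, 8.06 and 8.03 in BPH and 6.96, 6.70, 7.06, 6.79 and 6.81 in BPL (2.40-fold higher, adjusted p = 0.000227), and Dnajc3, an endoplasmic reticulum chaperone, 1.52-fold higher (adjusted p = 0.000151). Pdia6, a disulfide isomerase, was 1.29-fold lower (adjusted p = 0.000864). Creld2, at 0.89 (adjusted p = 0.0165), lost its call without BPH array 1 (0.0555) and with a variance trend and robust fit (0.0638), and Selenos, at 0.24 (0.0408), without any of 9 liver arrays. The higher count was 2 without BPH array 1. Of 14 immediate early genes 1 rose, Dusp1, a phosphatase of MAP kinases, at 9.38, 9.33, 9.69, 9.71 and 10.19 in BPH and 8.60, 8.28, 8.54, 7.54 and 8.25 in BPL (2.67-fold higher, adjusted p = 0.00086).

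Markers of the other cells of liver moved in part. In bulk tissue fewer cells of a type and less RNA per cell cannot be told apart. Of 14 sinusoidal endothelial markers 3 rose and 1 fell. Lyve1, a hyaluronan receptor, read 6.10, 6.63, 6.17, 6.81 and 6.15 in BPH and 4.82, 5.09, 4.61, 5.01 and 5.14 in BPL (2.70-fold higher, adjusted p = 5.13e-07), and Dnase1l3 and Stab1 were 1.64-fold and 1.32-fold higher, while Ehd3 was 1.29-fold lower. The summed signal of these markers was 2219 to 2968 in BPH and 2502 to 2610 in BPL, which overlap. Without BPH array 1, which had the low sum, 5 markers were called higher. Of 15 Kupffer cell and macrophage markers 1 rose and 2 fell. Folr2 was 2.43-fold higher (adjusted p = 9.55e-09), while C1qb and C1qc, of complement C1q, were 1.46-fold and 1.28-fold lower. Their summed signal was 2225 to 2621 in BPH and 2466 to 2609 in BPL.

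Of 18 stellate cell and matrix markers 3 rose and 1 fell. Rgs5 and Ecm1 were 1.43-fold and 1.24-fold higher and Col4a2 1.28-fold lower, while Dcn, at 0.23 (adjusted p = 0.0375), was lost without any of 7 liver arrays. Their summed signal was 4435 to 4764 in BPH and 3838 to 4308 in BPL, which did not overlap, but their mean log2 deviation from the liver mean did, at -0.08 to 0.06 in BPH and -0.13 to 0.03 in BPL. Of 9 neutrophil markers 2 rose, S100a8 and S100a9, by 1.67-fold and 1.58-fold, with summed signals of 140 to 177 in BPH and 119 to 145 in BPL. Of 4 red blood cell markers Alas2 fell 1.70-fold (adjusted p = 4.63e-05). Of 13 lymphocyte markers Cd3d fell by 0.44 (adjusted p = 0.00387, but 0.52 in the fit over 3 organs), of 8 bile duct markers Krt19 was at -0.53 (adjusted p = 0.0246), and of 7 adipocyte markers Cidea by -0.31 (adjusted p = 0.0435). Krt19 was lost without any of 5 liver arrays and Cidea without any of 9. Limma called 0 of 8 pancreatic acinar markers. Of 11 hepatocyte markers 1 rose, Glul, already given. The part of these cells in the other differences was not tested.

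Across organs, a similar share of the liver changes was also called, in the same direction, in kidney and in heart. The kidney contrast called 2429 probe sets (6.33%) and the heart contrast 3288 (8.57%). Of the 2213 liver changes, 689 were shared with kidney in direction (31.1%, and 28.4% of the kidney calls) and 688 with heart (31.1% and 20.9%). Calls in opposite directions numbered 79 and 92. Whether the organs came from the same mice is not given.

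The 24 genes with the largest liver differences differed in how their kidney values compared. In kidney 14 of them were called, 13 in the direction seen in liver. The liver and kidney differences differed for 18 of the 24, a count that is not independent of ranking the genes by their liver difference. Nlrp12, Myom2, Asic5, Obp2a, Cyp2c55, Fam25c and Acnat2 had kidney differences between -0.29 and 0.17, and none of these passed. In kidney, Asic5 (2.78 in BPH and 2.91 in BPL), Obp2a (3.45 and 3.32) and Fmn2 (3.34 and 3.04) were under the lower quartile cut of 3.64 in both strains. No kidney difference could be read for these genes, though they count among the 18. Thumpd1 was higher by 3.53 in liver, 3.82 in kidney, 4.32 in heart and 6.56 in aorta, and Atg4a differed by -3.53, -3.26, -2.92 and -2.50 in the same order. Gdpd3 was higher in the same 4 organs, by 4.82, 2.24, 5.72 and 4.84. Gstp3 differed by -3.90 in kidney and -1.28 in heart (adjusted p = 1.56e-10 and 0.0463). Mme was 0.94 higher in BPH kidney.

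**Figure D4:**
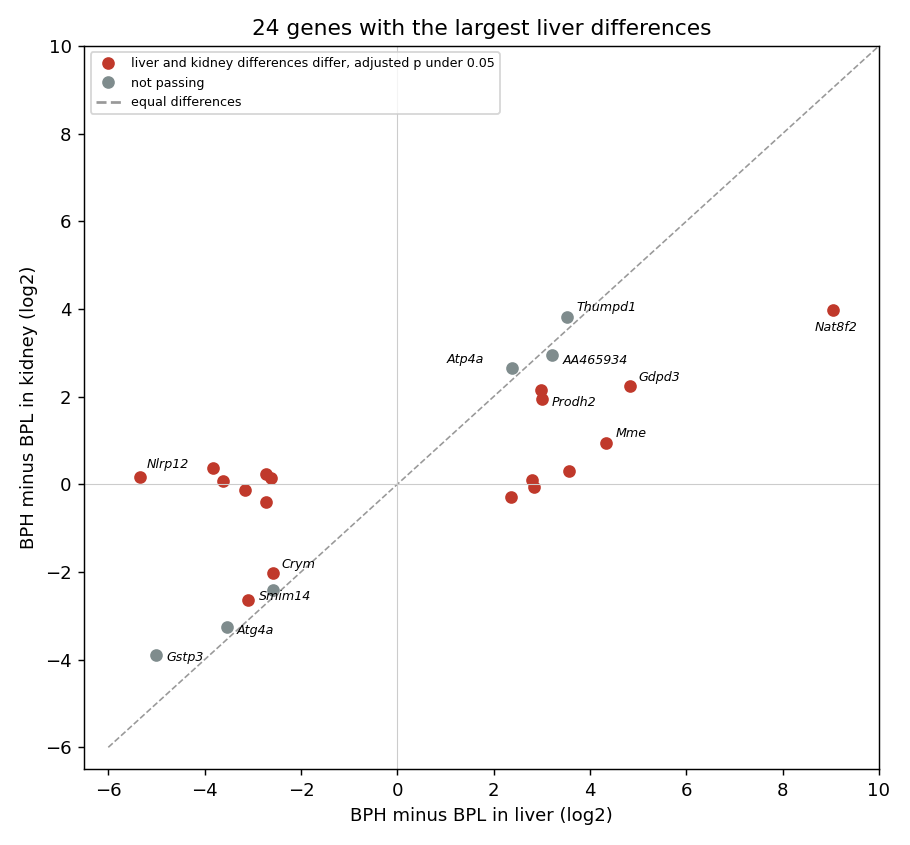
BPH minus BPL difference (log2) in liver (horizontal, 5 against 5 arrays) and kidney (vertical, 5 against 4 arrays) for the 24 genes with the largest liver differences. Red points are the 18 genes whose liver and kidney differences differ, grey points the other 6, and the dashed line marks equal differences. One row of red points lies near 0 in kidney. Gstp3, a grey point, is farther from the line than some red points, and differences that rest on dim signals (Nat8f2, Mme, Ifi202b, Atp4a and Nlrp12 in liver) are plotted as measured. Fmn2, Asic5 and Obp2a, all red, were dim in kidney in both strains, so no kidney difference could be read for them.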

How the data were processed

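RNA of 15 liver arrays was analysed (5 BPH, 5 BPL and 5 BPN), and of the 44 heart, kidney and liver arrays for the comparison of liver with kidney. The deposited values are linear intensities from 1.80 to 22648, which the authors normalized with RMA (per the submitters' processing notes); no version, scan date or plate was given. Per the labels' protocols, biotinylated cRNA was made from the RNA through cDNA and in vitro transcription. The arrays hold no depth or detection call, so the number of arrays limits the precision.

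Intensities were taken to log2 with a pseudocount of 0. Of 38385 probe sets, 24478 had 1 gene symbol in the platform annotation, 65 had several and 13842 were not listed there. Symbols were updated through 24237 Entrez identifiers found in the RefSeq table of GRCm38.p6. A gene was described by its brightest probe set (3958 genes had more than 1). Strain differences were tested with limma 3.58.1 in R 4.3.3 (1 mean per strain, empirical Bayes, Benjamini-Hochberg adjustment over all probe sets, threshold 0.05). Liver was set against kidney by an interaction in 1 fit over 44 arrays. Aorta was amplified by another protocol and was fitted alone, and only its differences for named genes are given. The scripts were checked on simulated data. Within liver, the labels' replicate numbers showed no pairing of BPH with BPL arrays: 0 of 5 numbers had deviations correlated above 0.1. This does not tell whether liver and kidney arrays of the same number share a mouse. The liver minus kidney test took them as independent.

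Members and lists were chosen with earlier results of these data known. The text names the 12 largest changes in each direction (called, arrays not overlapping, called in all 15 fits without 1 array, higher strain mean of at least 3.85), up to 3 members per direction and list with the lowest adjusted p that stayed called in those fits, and 12 fixed genes; others are not reported here. Any further gene in the text was picked with its values in view. The alternatives were a fit of 10 arrays, a fit over 44 arrays, a replicate block, a pseudocount of 16, removal of dim probe sets, further quantile normalization, median centring, a variance trend with robust fit, array weights, the median of a gene's probe sets, and leaving out each array.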

Additional observations from a re-analysis of the deposited data

Results flagged for a closer look

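Among 322 groups of 5 arrays checked for the named genes, 23 (7.14%) had 1 array far from the other 4, where chance alone flags about 1 group in 20. Values are log2 intensities, each with that of the next array of its strain. The array stood high for Cyp2c55 in BPL array 3 (5.79, next 5.04), Fam25c in BPL array 1 (7.59, next 6.49), Atg4a in BPH array 2 (4.15, next 3.63), Hmgcs1 in BPH array 1 (11.38, next 11.08), Cyp51 in BPH array 1 (9.85, next 9.61), Angptl4 in BPH array 4 (7.50, next 6.56) and Ddc in BPH array 3 (10.16, next 9.75). It also stood high for Serpina3n in BPH array 1 (10.63, next 10.37), Dnajc3 in BPH array 1 (9.82, next 9.64), H2-K1 in BPH array 5 (10.56, next 10.27), Cyp7a1 in BPL array 2 (8.39, next 7.61), Idi1 in BPL array 1 (10.34, next 10.20), Nsdhl in BPL array 1 (6.59, next 6.45) and Ppara in BPH array 1 (8.71, next 8.63). It stood low for AA465934 in BPH array 1 (8.02, next 8.18), Abcc3 in BPL array 1 (8.70, next 8.97), Serpina1e in BPL array 3 (11.89, next 12.06), F12 in BPH array 5 (9.97, next 10.14), Csad in BPL array 5 (10.44, next 10.89), Ehd3 in BPH array 1 (7.38, next 7.77), Gstm6 in BPH array 5 (8.91, next 9.20), Sult1e1 in BPL array 3 (2.07, next 2.59) and Tap2 in BPL array 3 (6.07, next 6.19). BPH array 1 accounted for the high values of both Hmgcs1 and Cyp51, which lay nearer to BPL than the other BPH arrays did, and BPL array 1 for those of Idi1 and Nsdhl. What sets these arrays apart was not tested.

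For 18 of the 24 largest liver changes the BPH minus BPL difference was not the same in liver and kidney, tested as an interaction in limma. The liver difference minus the kidney difference was above 0 for Nat8f2 (5.05), Gdpd3 (2.58), Mme (3.39), Fmn2 (3.27), Ifi202b (1.05), Prodh2 (0.82), Cyp2c55 (2.89), Fam25c (2.71) and Acnat2 (2.66). It was below 0 for Nlrp12 (-5.52), Itih5 (-4.18), Myom2 (-3.71), Asic5 (-3.04), Smim14 (-0.45), Dram1 (-2.96), Ugt3a1 (-2.33), Obp2a (-2.75) and Crym (-0.55). The genes were ranked by their liver difference, so these values lean to a larger difference in liver. With a pseudocount of 16 the Crym value turned to 0.15 (adjusted p = 0.592). The values of Nat8f2, Mme, Ifi202b and Nlrp12 rest on a liver strain mean under the lower quartile of the arrays, and those of Nat8f2, Ifi202b, Fmn2, Asic5 and Obp2a on such a kidney mean, so their sizes are not exact. Fmn2, Asic5 and Obp2a lay under that quartile in both strains in kidney. Their values largely repeat the liver difference, and no kidney difference could be read for them.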

How the results depend on the processing

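The count of changed probe sets, 2213, ran from 2105 with arrays centred on their medians to 2995 in the fit over 44 arrays, and from 1880 to 2291 in the 15 fits without 1 liver array. Higher and lower counts over all probe sets moved by under 1.5 times in each alternative. Counts over the gene lists, most of them small, moved more: 18 moved by over 1.5 times in the fit over 44 arrays, 14 with dim probe sets removed, 13 each with array weights and the variance trend, 10 in the fit of 10 arrays, and 2 to 8 in the median of probe sets, pseudocount, centring, quantile and block fits. Beyond those given with their lists, the moves of more than 1 gene were P450 genes higher (4 to 1) and bile acid genes lower (5 to 3) in the fit over 44 arrays, conjugation genes lower (2 to 4) in that fit, with dim probe sets removed, the trend or array weights, and iron genes lower (0 to 2) with 10 arrays, the trend or array weights. The cholesterol counts did not move by 1.5 times in any of these. With the replicate block 2220 probe sets were called. Nothing is read from this, since the numbers are not known to pair the arrays. The fit of 10 arrays called 2207, the variance trend with robust fit 2402, array weights 2561, a pseudocount of 16 2472, removal of dim probe sets 2344 and quantile normalization 2289. The liver minus kidney count, 1778, was between 1572 and 2253 in its alternatives other than leaving out arrays. Of the named genes, 25 lost their call in the fit over 44 arrays, 10 with 10 arrays, 6 with the variance trend, 6 with centring, 5 with a pseudocount of 16, 5 with the block, 2 with quantile normalization and 2 with array weights; the cause was not tested. Crym reversed in 1 test: its liver minus kidney difference of -0.55 became 0.15 with a pseudocount of 16 (adjusted p = 0.592). A pseudocount shrinks differences of dim probe sets. Probe sets near the dimmest signals have no detection call, so their levels are only upper bounds.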

Other observations

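Changed genes that stand next to each other on a chromosome were also described. Of 18910 named genes in genome order 1400 were changed, and 22 runs of 3 or more neighbours, holding 70 genes, were changed together. The longest runs had 4 genes. One is the Hsd3b cluster on chromosome 3, whose enzymes convert steroid hormones. In it Hsd3b2 read 10.05, 9.96, 9.85, 9.96 and 10.11 in BPH and 7.89, 7.75, 8.19, 7.71 and 7.92 in BPL, a difference of 2.10 ± 0.09 (SE, limma adjusted p = 6.19e-12). Hsd3b3, in the same cluster, read 9.32, 9.44, 9.38, 9.24 and 9.36 in BPH and 11.19, 10.97, 11.19, 10.96 and 11.07 in BPL, a difference of -1.73 ± 0.07 (SE, limma adjusted p = 6.13e-12). Hsd3b6 differed by -0.60 (limma adjusted p = 0.000162) and Hsd3b5 by -0.43, so neighbours in this cluster differed in opposite directions, and BPN was near BPH for Hsd3b2 and Hsd3b3 (9.78 and 9.38). The genes are close copies, and their probe sets may share signal. In kidney Hsd3b3 differed by -1.75 and Hsd3b2 higher by 0.92.

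In the Nat8 cluster on chromosome 6, Nat8 and Nat8f5 were higher in BPH liver by 0.89 and 0.67, beside Nat8f2, while in kidney they differed by -0.53 and -1.83. On chromosome 7, Cyp2a22 and Cyp2a12 differed by -1.17 and -0.56 beside Cyp2f2; Cyp2a12 had an adjusted p of 0.128 in the fit over 3 organs. H2-Ea, a class II gene, read 6.86, 6.59, 6.42, 6.90 and 6.35 in BPH and 4.22, 4.27, 4.26, 4.35 and 4.34 in BPL, with BPN at 7.76, and was higher by 3.01 in BPH kidney as well. The share of genes called ran from 4.93% on chromosome X to 10.7% on chromosome 18, apart from chromosome Y with 0 of 13 genes.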
